A study of Mus musculus with 12 samples.

Results

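The 10 genes described here belong to the bone morphogenetic protein (BMP) pathway. They are the ligands Bmp2, Bmp4 and Bmp6, the antagonist Grem1, the receptor Bmpr1a, and the BMP-induced genes Id1, Id2, Id3, Smad6 and Smad7. They were chosen by symbol, and each symbol was found once among the 55487 Ensembl genes of the count table, through the GENCODE annotation of GRCm38. The cells were C2C12 myotubes, made from a clonal mouse myoblast line whose cells fuse when serum is lowered. All wells were differentiated for 5 days in DMEM with 2% horse serum and then received fresh medium for 24 h. The control group was given 4% horse serum, and the treated group 4% STEM, the medium product, without cells, that human embryonic stem cells secrete when they are partly differentiated. STEM replaced the serum, so the addition of STEM and the removal of horse serum cannot be told apart. Each group held 6 libraries of total RNA. The horse serum libraries (1 to 6) held 13285472 to 18254882 counts each and the STEM libraries (7 to 12) held 14909485 to 24536264. The labels do not say whether the libraries of a group came from separate cultures, so p-values measure the spread between these libraries, which may be technical.

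BMPs are secreted dimers that bring together type I and type II receptor kinases at the cell surface. The active type I receptor phosphorylates Smad1, Smad5 or Smad9, which enter the nucleus with Smad4 and induce the Id genes, Smad6 and Smad7. Id proteins pair with basic helix-loop-helix (bHLH) factors without binding DNA and so hold back MyoD and its relatives, and BMP treatment of C2C12 myoblasts is a classic way to block myotube formation and to turn the cells towards bone.

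The cells carried the RNA of myotubes. All 13 myotube markers passed the filter on low counts, with the skeletal actin gene Acta1 the most abundant per kb of exon. Horse serum library 6 stood apart from the rest. Levels are given as CPM, the gene's count scaled by the TMM-normalized size of the library. The myotube markers of library 6 summed to 10880 CPM, against 19967 to 22172 CPM in the other horse serum libraries and 17105 to 23317 CPM among the STEM libraries. Its dividing cell markers had the highest sum of the 12 libraries, at 1317 CPM against 769 to 1157 CPM in the other horse serum libraries. Results that rest on this library are therefore given with and without it.

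With STEM, the ligand gene Bmp4 and the antagonist gene Grem1 fell to about the same degree, and Id1 and Id3 rose while Id2 fell. Transcripts of the receptor Bmpr1a, of the inhibitory Smads Smad6 and Smad7 and of the ligand Bmp6 showed no difference that passed the test. Of the 10 genes, 9 passed the filter on low counts, and 5 of these were called differentially expressed, of which 2 rose and 3 fell with STEM (edgeR's quasi-likelihood test, adjusted p of 0.05 or less after Benjamini-Hochberg adjustment over all genes tested). Among all 14175 tested genes the share called was 36.4%, made up of 18.9% higher and 17.4% lower. The same 5 members passed an exact two-sided permutation test over the libraries (adjusted p from 0.0126 to 0.0366), as did 33.0% of all genes. They also passed with DESeq2 (29.3% of all genes), limma-voom (35.1%), DESeq2's size factors (36.2%) and library totals only (34.6%) in place of the settings above. Without library 6 the share called among all genes rose to 50.8%, with 26.3% higher and 24.5% lower, and the members called were again 2 higher and 3 lower.

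**Figure D1:**
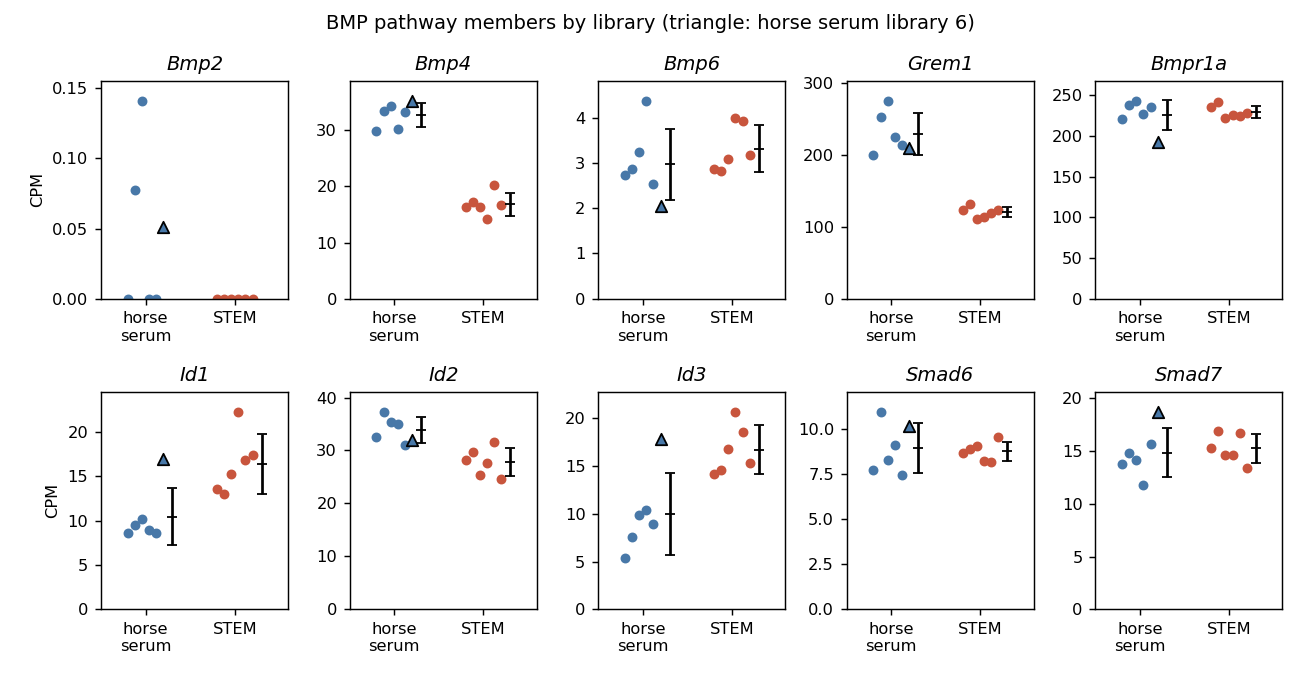
CPM of the 10 genes in each library (y axis, linear from 0), with horse serum in blue and STEM in red, horse serum library 6 as a triangle, and the mean and SD of 6 libraries in black (not drawn for Bmp2, which had at most 2 counts in any library). Every STEM library lies below every horse serum library for Bmp4 and Grem1, and for Id1 and Id3 the triangle lies among the STEM libraries.

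Bmp4 (ENSMUSG00000021835, chromosome 14, 46383520 to 46390669) encodes a ligand that can block myoblast differentiation. Its lowest, median and highest values were 29.9, 33.4 and 35.3 CPM with horse serum. With STEM they were 14.1, 16.5 and 20.3 CPM. The groups did not overlap, and the mean dropped to 16.8 ± 2.02 CPM from 32.7 ± 2.21 CPM (SD, n = 6 each). Its log2 fold change (log2FC, STEM over horse serum) was -0.96 ± 0.078 (SE, adjusted p = 5.03e-07), so Bmp4 fell by 48.6%. Bmp4 shares 89 exon bases with Gm15217 on the other strand, a gene without counts here, and the antisense gene Gm15222, which overlaps it outside the exons of Bmp4, was at 0.86 ± 0.25 CPM with horse serum.
Bmp6 (ENSMUSG00000039004, chromosome 13, 38345107 to 38500302), a ligand also known from iron balance, was low in both groups. It ranged from 2.05 to 4.37 CPM with horse serum, with a median of 2.80 CPM. With STEM it ranged from 2.83 to 4.00 CPM, with a median of 3.13 CPM. The ranges overlapped (log2FC 0.16 ± 0.17 SE, adjusted p = 0.499). When each library was left out in turn, the log2FC of Bmp6 ran from 0.061 (without horse serum library 6) to 0.31. None of these fits called Bmp6 (adjusted p of 0.15 or more). The exons of Bmp6 share 224 bases with those of Txndc5 on the other strand, a gene of 278 ± 22.4 CPM in horse serum and 331 ± 15.6 CPM in STEM libraries. The strand setting of the counting is not given in the sources used here, so reads of the shared bases cannot be assigned with certainty.
Bmp2 (ENSMUSG00000027358, chromosome 2, 133552159 to 133562885), the ligand most used to turn C2C12 cells towards bone, was close to undetected. It had 0 to 2 counts per horse serum library and 0 counts in each STEM library. A count of 0 allows up to 3 counts, which are worth 0.122 to 0.202 CPM in the STEM libraries (counting error only). Both groups were at or under this limit, so no fold change is given.

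Grem1 (ENSMUSG00000074934, chromosome 2, 113746164 to 113758646) encodes gremlin, a secreted protein that binds BMP ligands and keeps them from their receptors. The lowest, median and highest values were 199.6, 219 and 276 CPM with horse serum. With STEM they were 111, 122 and 132 CPM, again with no overlap. Grem1 fell by 47.3% (log2FC -0.92 ± 0.075 SE, adjusted p = 4.95e-07). Bmp4 and Grem1 were the members whose groups did not overlap, 2 of 9, both with STEM below. Among all genes tested, the groups did not overlap for 17.2%, with STEM above for 8.68% and below for 8.52%. Per kb of exon, the CPM of Grem1 was 3.80 ± 0.43 times that of Bmp4 in horse serum libraries and 3.93 ± 0.42 times in STEM libraries (SD, n = 6 each), so the ratio of antagonist to ligand RNA differed by less than the spread between libraries.
The 3 genes whose profile over the 12 libraries came closest to that of Grem1 were Gulp1, Jade1 and Epha4. Likeness was measured as the mean absolute difference of log2 CPM after centring each gene, over genes of at least 5 CPM, and was 0.084 for Gulp1, 0.093 for Jade1 and 0.10 for Epha4. Gulp1, an adaptor of cell engulfment, was at 68.5 ± 6.25 CPM with horse serum and 39.9 ± 1.23 CPM after STEM, and the ephrin receptor gene Epha4 at 22.2 ± 2.07 CPM and 13.5 ± 0.92 CPM (SD, n = 6 each).

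Promoter sequence was read for 7 of the 10 members, from the promoter table used here, which was taken from RefSeq on GRCm38.p6. Bmp2 and Id1 had no usable entry in it, and the promoter of Smad7 was left out and is not reported here. Of the 7, 4 that were differentially expressed are printed as 250 bases upstream of the start site, 5′ to 3′ on the strand of the gene. Bmp4 (chr14:46390670-46390919, minus strand) and Grem1 (chr2:113758649-113758898, minus strand) are shown because both fell, and Id2 (chr12:25096093-25096342, minus strand) and Id3 (chr4:136143572-136143821, plus strand) because they moved in opposite directions. Capitals mark GGCGCC, a palindrome known as a GC-rich site of Smad1 and Smad5.
Bmp4: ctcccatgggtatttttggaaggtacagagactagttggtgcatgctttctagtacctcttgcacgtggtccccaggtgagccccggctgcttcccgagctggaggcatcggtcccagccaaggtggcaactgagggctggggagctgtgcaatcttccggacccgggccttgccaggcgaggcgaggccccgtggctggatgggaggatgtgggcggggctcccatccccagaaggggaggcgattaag
Grem1: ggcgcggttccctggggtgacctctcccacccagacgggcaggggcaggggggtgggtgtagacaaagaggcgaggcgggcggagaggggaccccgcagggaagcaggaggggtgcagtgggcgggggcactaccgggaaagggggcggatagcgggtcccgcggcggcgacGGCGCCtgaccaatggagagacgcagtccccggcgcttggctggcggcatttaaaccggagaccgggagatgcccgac
Id2: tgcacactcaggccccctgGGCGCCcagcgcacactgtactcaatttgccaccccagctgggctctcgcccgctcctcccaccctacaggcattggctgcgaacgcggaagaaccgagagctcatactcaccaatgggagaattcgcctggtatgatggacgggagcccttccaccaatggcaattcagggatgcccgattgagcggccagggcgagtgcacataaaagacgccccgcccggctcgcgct
Id3: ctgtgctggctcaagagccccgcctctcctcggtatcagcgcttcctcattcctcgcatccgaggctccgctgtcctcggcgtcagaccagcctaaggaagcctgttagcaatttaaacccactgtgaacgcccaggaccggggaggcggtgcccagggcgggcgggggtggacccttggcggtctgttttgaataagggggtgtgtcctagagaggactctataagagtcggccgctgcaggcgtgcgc
Of the 7 members read, 3 held GGCGCC within the window of 300 bases around the start, namely Bmpr1a, Grem1 and Id2. Of all 32851 promoter windows, 11.9% held it. The upstream sequences of the 7 members had a GC content of 62.8% to 78.8%, above the median of 52.4% over all promoters. The windows of Bmp4 and Id3 did not hold these letters. The palindrome GTCTAGAC, the classic Smad binding element, overlaps no GGCGCC and was in 0.213% of all windows. Among the 7 it was in Smad6, where it spans the start site with 4 bases on either side. It is shown in capitals in a stretch of 30 bases (chr9:64022045-64022074, minus strand).
Smad6: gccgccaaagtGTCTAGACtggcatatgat
Both motifs read the same on both strands, and a match is a description of the sequence, not of binding.

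The receptor gene Bmpr1a (ENSMUSG00000021796, chromosome 14, 34410734 to 34503341) encodes a type I receptor for BMP2 and BMP4. Its lowest, median and highest values were 192, 231 and 243 CPM with horse serum. With STEM they were 222, 227 and 241 CPM. The horse serum range took in the whole STEM range, and log2FC was 0.02 ± 0.054 (SE, adjusted p = 0.756). The lowest value was that of horse serum library 6, without which log2FC was -0.02. Bmpr1a shares 290 exon bases with Gm17110 on the other strand, which had at most 4 counts in any library.

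The Id genes encode the inhibitors of bHLH factors, and did not move as one. Id1 (ENSMUSG00000042745, chromosome 2, 152736251 to 152737410) had a lowest, median and highest value of 8.57, 9.21 and 17.0 CPM with horse serum. With STEM they were 13.0, 16.0 and 22.3 CPM. The highest horse serum value was that of library 6, while the other 5 libraries did not exceed 10.2 CPM and lay below every STEM library. Id1 rose by 55.2% (log2FC 0.63 ± 0.18 SE, adjusted p = 0.0133), and log2FC was 0.83 once library 6 was left out (adjusted p = 3.08e-05).
Id3 (ENSMUSG00000007872, chromosome 4, 136143497 to 136145755) followed the same pattern. Its lowest, median and highest values were 5.35, 9.41 and 17.8 CPM with horse serum, the highest again in library 6. With STEM they were 14.2, 16.1 and 20.7 CPM. Id3 rose by 64.8% (log2FC 0.72 ± 0.22 SE, adjusted p = 0.0221), and log2FC was 0.98 once library 6 was left out (adjusted p = 0.0001). Without that library every STEM value of Id1 and of Id3 lay above the horse serum values, as was the case for 16.8% of all genes, while for 33.4% the groups did not overlap in either direction (16.5% with STEM below). When no filter on low counts was used, which called 15.7% of 29620 genes, neither Id1 (adjusted p = 0.0531) nor Id3 (adjusted p = 0.0843) passed the edgeR test.
Id2 (ENSMUSG00000020644, chromosome 12, 25093799 to 25097140) moved the other way. Its lowest, median and highest values were 31.1, 33.7 and 37.4 CPM with horse serum. With STEM they were 24.6, 28.0 and 31.5 CPM, and 5 of 6 STEM libraries lay below every horse serum library. Id2 fell by 17.7% (log2FC -0.28 ± 0.069 SE, adjusted p = 0.0054). In library 6 it was 32.0 CPM, within the range of the other horse serum libraries. Id4, the remaining Id gene, did not exceed 3 counts in any library.

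**Figure D2:**
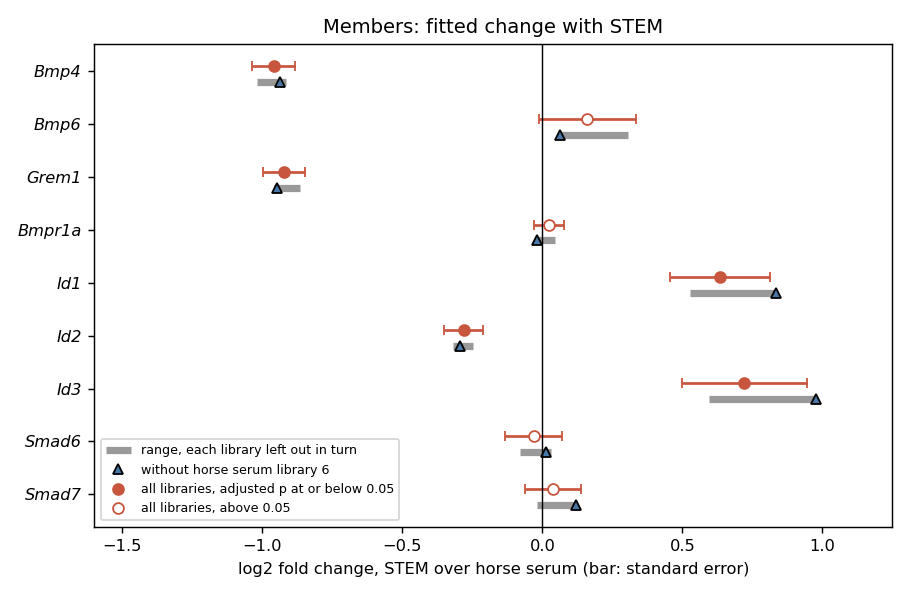
Log2 fold change of the 9 members tested (x axis, STEM over horse serum), as fitted on all libraries with its standard error (circles, filled at an adjusted p of 0.05 or less), the range over fits that left out each library in turn (grey) and the fit without horse serum library 6 (triangle). Leaving out library 6 moved Id1 from 0.63 to 0.83 and Id3 from 0.72 to 0.98, and gave Bmp4 and Grem1 -0.94 and -0.95.

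Smad6 and Smad7 encode inhibitory Smads that compete with the activating Smads at the receptors and recruit ubiquitin ligases. Smad6 (ENSMUSG00000036867, chromosome 9, 63953076 to 64022059) had means of 8.94 ± 1.40 CPM in horse serum and 8.75 ± 0.54 CPM in STEM libraries (SD, n = 6 each). Smad7 (ENSMUSG00000025880, chromosome 18, 75367529 to 75395935) ranged from 11.8 to 18.7 CPM and from 13.3 to 16.8 CPM. In both genes the horse serum range contained the STEM range. For Smad6, log2FC was -0.03 ± 0.10 (SE, adjusted p = 0.831), and for Smad7 it was 0.04 ± 0.099 (SE, adjusted p = 0.787). Library 6 held the highest Smad7 value of the horse serum group.

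Levels were compared between genes as CPM per kb of exon. With horse serum the order was Grem1 (55.3 ± 7.04 CPM per kb), Bmpr1a, Bmp4, Id2, Id1, Id3, Smad7, Smad6, Bmp6 (0.76 ± 0.20 CPM per kb) and Bmp2 (SD, n = 6). Neighbours whose ranges of mean ± SD overlapped were Bmp4 and Id2, Id1 and Id3, Id3 and Smad7, and Smad7 and Smad6. With STEM the order was Bmpr1a (36.2 ± 1.15 CPM per kb), Grem1 (29.1 ± 1.80 CPM per kb), Id1, Id2, Id3, Bmp4, Smad7, Smad6, Bmp6 and Bmp2. Here the overlapping neighbours were Id1 and Id2, Id2 and Id3, and Id3 and Bmp4. Per kb of exon, the receptor thus stood above the antagonist with STEM and below it with horse serum. Before this scaling, Grem1 was at 229 ± 29.2 CPM and Bmpr1a at 226 ± 18.4 CPM with horse serum (SD, n = 6). Their order in that group therefore rests on the annotated exon lengths, 4148 bases for Grem1 and 6351 for Bmpr1a.

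The profile closest to that of Id1 over the 12 libraries was that of Sulf2, which encodes an enzyme that removes sulfate groups from heparan sulfate, with a mean absolute difference of 0.096 in centred log2 CPM. Next came Pop1, a subunit of RNase P and RNase MRP, at 0.11, and the gene annotated as CAAA01118383.1 (ENSMUSG00000063897), also at 0.11. Sulf2 stood at 28.6 ± 9.24 CPM with horse serum and 45.3 ± 4.95 CPM after STEM (SD, n = 6 each). In horse serum library 6 Sulf2 was 47.3 CPM, at the level of the STEM group, as Id1 was. The profiles were matched over all 12 libraries with library 6 among them, so this likeness follows from how Sulf2 was chosen.

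**Figure D3:**
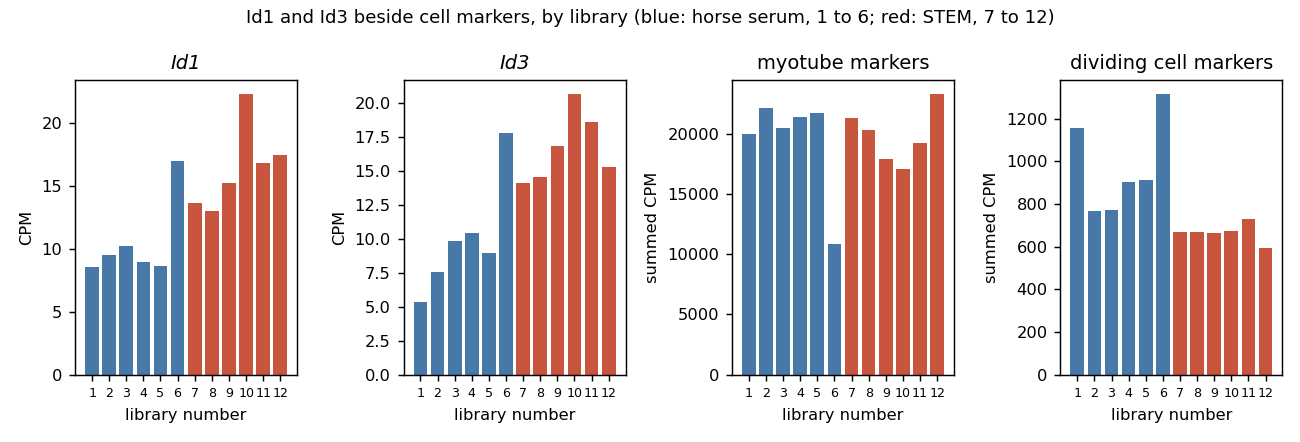
CPM of Id1 and Id3 and the summed CPM of 13 myotube and 10 dividing cell markers in each library (x axis, library number; horse serum in blue, STEM in red). Library 6 has the highest Id1 and Id3 of the horse serum group together with the lowest sum of myotube markers, while the STEM libraries have 13.0 to 22.3 CPM of Id1 and 14.2 to 20.7 CPM of Id3 beside 17105 to 23317 CPM of myotube markers. The sums are not scaled by exon length, and Ttn is the largest part of each myotube sum.

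Marker genes of the cells in the wells were set beside these results. In library 6, Id1 and Id3 were high where myotube markers were low. The STEM libraries had 13.0 to 22.3 CPM of Id1 and 14.2 to 20.7 CPM of Id3, with myotube markers summing to a median of 19795 CPM, against 20911 CPM with horse serum. These sums are not scaled by exon length, and the long titin gene Ttn was the largest part of each. Ttn was at 6299 to 11610 CPM in STEM libraries and 5389 to 8547 CPM in horse serum libraries, so the likeness of the medians leans on this gene. Of the 13 myotube markers, 2 were higher with STEM, the fusion gene Mymk and the fast myosin gene Myh4, and 1 was lower, the perinatal myosin gene Myh8, against 18.9% higher and 17.4% lower among all genes. The call of Myh8 was lost with limma-voom (adjusted p = 0.105), with no filter (adjusted p = 0.0798) and when any library but horse serum library 6 was left out. Library 6 held 79.8 CPM of Myh8, against 598 to 775 CPM in the other horse serum libraries and 181 to 294 CPM with STEM, and without it log2FC was -1.48 (adjusted p = 1.83e-06). Without library 6 the same list gave 2 higher and 7 lower (26.3% and 24.5% of all genes). The dividing cell markers summed to a median of 908 CPM with horse serum (Top2a the most abundant per kb) and 671 CPM with STEM, and every STEM library had a lower sum than every horse serum library. Of these 10 genes, 7 were lower and 0 higher with STEM in edgeR, and 0 were higher at an unadjusted p under 0.05, with DESeq2 or with limma-voom. Among all genes 17.4% were lower and 18.9% higher. Bub1, among the 7, lost its call with library totals only, with no filter (adjusted p = 0.107) and in 6 of 12 fits that left out a library. It did not pass the exact permutation test (adjusted p = 0.0889).
Markers of unfused and reserve myoblasts summed to a median of 277 CPM in horse serum and 269.6 CPM in STEM libraries. Notch3 was the most abundant of these per kb, and Pax3 and Chrdl2 were at 3 counts or fewer throughout. Of the 7 tested, the Notch target Hey1 was higher and 3 were lower (Cd34, Spry1 and Myf5), beside 18.9% higher and 17.4% lower among all genes. Without library 6, 3 were higher and 3 lower, beside 50.8% of all genes called. Markers of fibroblasts and other mesenchymal cells were low and summed to 19.7 to 32.4 CPM in horse serum and 35.5 to 39.2 CPM in STEM libraries, with Dpt the most abundant per kb and with Lum and Thy1 at 3 counts or fewer throughout. Of the 4 tested in this list, Dpt and Pi16 were higher with STEM and 0 were lower in edgeR, at an unadjusted p under 0.05, with DESeq2 or with limma-voom, beside 18.9% higher and 17.4% lower among all genes. Without library 6, 3 were higher, beside 26.3% of all genes. Library 6 had the highest sum of the horse serum group in this list too. The part of cell composition in the changes of Bmp4, Grem1 and the Id genes was not tested, and in bulk RNA fewer cells of a type and less RNA per cell cannot be told apart.

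The other genes of the pathway were examined in 6 lists with 67 entries, of which 45 were tested and 18 were called (40%, beside 36.4% of all genes), with 10 rising and 8 falling in the STEM libraries. The share is near that of all genes, of which 18.9% rose and 17.4% fell. Their median log2FC was 0.08, beside 0.01 over all genes tested. Of 12 other BMP and GDF ligands, 10 did not pass the filter on low counts, and 8 of these did not exceed 3 counts in any library. The tested 2 were both lower with STEM. Gdf6 was at 0.91 ± 0.20 CPM with horse serum and 0.45 ± 0.11 CPM after STEM (SD, n = 6 each), with no overlap (log2FC -1.02, adjusted p = 0.00296). Gdf5, a ligand of joint and tendon development, had a log2FC of -0.80 (adjusted p = 0.0363), but was 3.59 CPM in library 6 against 12.3 to 17.1 CPM in the other horse serum libraries and 5.48 to 8.75 CPM with STEM. The call of Gdf5 was lost when any library except horse serum library 6 or STEM library 11 was left out (adjusted p up to 0.0863), with limma-voom (adjusted p = 0.151) and with no filter (adjusted p = 0.115). Gdf5 did not pass the exact permutation test either (adjusted p = 0.164). Without library 6 the fall of Gdf5 was larger, with a log2FC of -0.9997 (adjusted p = 1.41e-06). Bmp8a, named after its values were seen, was under the filter, with 0 to 4 counts per horse serum library and 4 to 11 per STEM library. DESeq2, which keeps such genes, called it higher (log2FC 1.72, adjusted p = 0.0128).

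Of 13 other antagonists, 9 were tested, with 2 lower and 1 higher with STEM, and a median log2FC of 0.09. These 3 of 9 are no larger a share than the 36.4% of all genes. Chrdl1, a chordin-like antagonist and the one with the lowest p, dropped to 101 ± 5.81 CPM from 153 ± 7.44 CPM (SD, n = 6 each; log2FC -0.60 ± 0.048 SE, adjusted p = 4.76e-07). Crim1, a membrane protein that binds BMPs, had a log2FC of -0.79 (adjusted p = 6.7e-06). The groups did not overlap for Chrdl1 and Crim1, as for 17.2% of all genes. The gene that rose was Dand5, of the Cerberus and DAN family (log2FC 0.33, adjusted p = 0.0466). Its call was lost in 9 of the 12 fits that left out a library (adjusted p up to 0.096). Without library 6, Dand5 did not pass (adjusted p = 0.0611) and 3 others rose (Nbl1, Twsg1 and Bmper), with Chrdl1 and Crim1 again lower (50.8% of all genes called). Nbl1, the most abundant per kb of those that were not called, was 69.2 ± 7.31 CPM in horse serum and 74.5 ± 3.10 CPM in STEM libraries (adjusted p = 0.21). Among the classic antagonists, named after their values were seen, the log2FC of chordin (Chrd) was 0.08 (adjusted p = 0.259) and that of noggin (Nog) -0.22 (adjusted p = 0.651). Nog was 0.307 CPM in library 6, against 1.41 to 2.74 CPM in the other horse serum libraries. Its log2FC was -0.46 without library 6 (adjusted p = 0.0915) and 0.02 with limma-voom (adjusted p = 0.974), so neither fit called it.

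All 12 other receptors and co-receptors were tested, with 3 higher and 2 lower with STEM and a median log2FC of -0.01. These 5 of 12 lie near the share of 36.4% called among all genes. The type I receptor gene Bmpr1b rose to 14.6 ± 1.74 CPM from 8.81 ± 1.23 CPM (SD, n = 6 each), with no overlap (log2FC 0.73, adjusted p = 0.000107). Per kb of exon it stood at 1.48 CPM per kb in horse serum and 2.45 CPM per kb in STEM libraries, below Bmpr1a. Acvrl1, the endothelial type I receptor ALK1, fell to 1.20 ± 0.25 CPM from 3.64 ± 1.21 CPM, with a log2FC of -1.59 (adjusted p = 0.00012). The activin and BMP type II receptor gene Acvr2b was low and had a log2FC of -0.63 (adjusted p = 0.0212). The other two that rose, named to complete the count, were the type II receptor gene Bmpr2 (log2FC 0.36, adjusted p = 0.0496) and the co-receptor gene Rgma (log2FC 0.34, adjusted p = 0.0299). Neither passed the exact permutation test (adjusted p = 0.101 for Bmpr2 and 0.0506 for Rgma). Bmpr2 also lost its call with DESeq2's size factors, with library totals only, with no filter (adjusted p = 0.149) and in 10 of 12 fits that left out a library, and Rgma with limma-voom (adjusted p = 0.053) and in 6 of 12. Without library 6, 4 of the 12 were higher and 3 lower, beside 50.8% of all genes called. The most abundant per kb was the gene of the muscle co-receptor hemojuvelin (Hjv, annotated as Hfe2), with means of 153 ± 39.6 CPM in horse serum and 158 ± 18.5 CPM in STEM libraries (adjusted p = 0.882). Horse serum library 6 held 74.0 CPM of it, against 161 to 181 CPM in the other horse serum libraries.

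All 11 other signal transducers and their inhibitors were tested. Of these, 6 were higher with STEM, and 0 were lower in edgeR, at an unadjusted p under 0.05, with DESeq2 or with limma-voom. Among all genes 18.9% were higher and 17.4% lower. The median log2FC of the list was 0.16. Of the 6, Smad1 lost its call with no filter (adjusted p = 0.059). Skil lost it without STEM library 7 (adjusted p = 0.0553) and Tob1 without horse serum library 1 (adjusted p = 0.0507). Tob1 did not pass the exact permutation test either (adjusted p = 0.0506). Smad5, an activating Smad, was at 97.8 ± 7.27 CPM with horse serum and 114 ± 6.19 CPM after STEM (SD, n = 6 each; log2FC 0.23, adjusted p = 0.00425). In library 6 it was 112 CPM, against 92.7 to 96.4 CPM in the other horse serum libraries. Fkbp1a, a protein that holds type I receptors inactive, had a log2FC of 0.29 (adjusted p = 0.00488), and Lemd3, a nuclear envelope protein that binds Smads and dampens their signal, one of 0.21 (adjusted p = 0.00587). The shared partner Smad4 was 72.5 ± 8.05 CPM in horse serum and 70.4 ± 5.97 CPM in STEM libraries (adjusted p = 0.675). Without library 6, 8 of the 11 were higher, beside 26.3% of all genes.

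**Figure D4:**
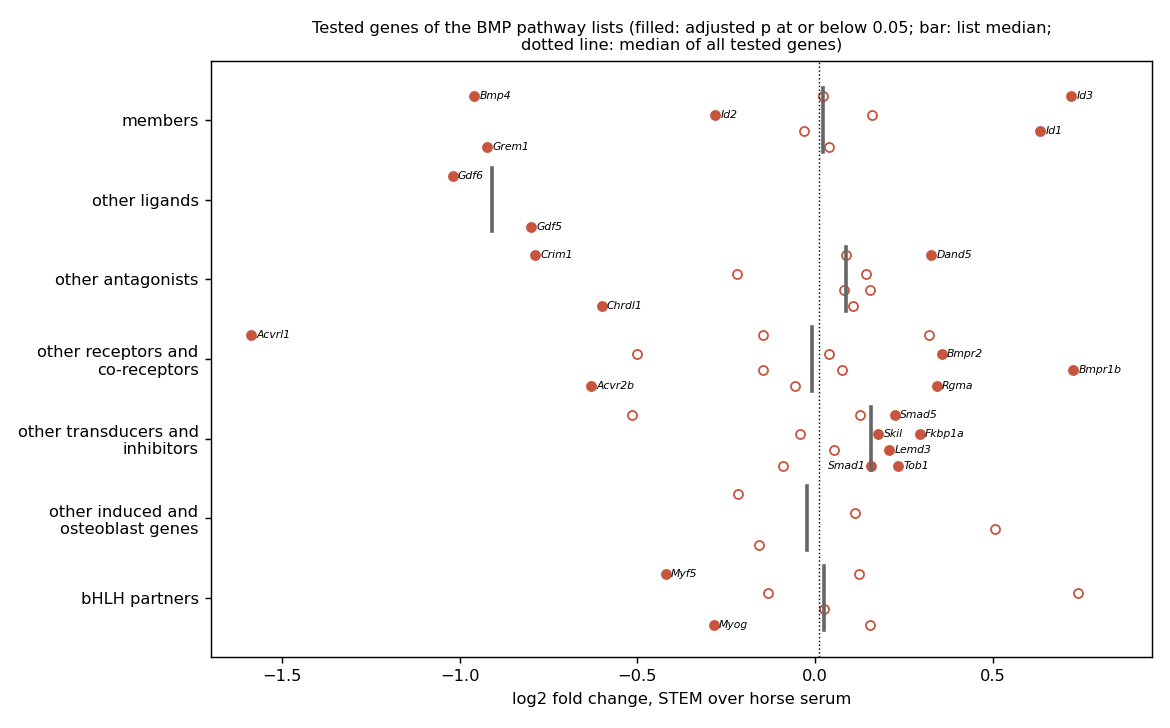
Log2 fold change with STEM (x axis) of every tested gene of the members and of the 6 other lists (y axis), filled and named at an adjusted p of 0.05 or less, with the list median as a bar and the median of all genes tested as a dotted line. The named antagonists lie at -0.60 or below apart from Dand5, and all 6 named transducers lie right of 0.

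Of 12 other BMP-induced transcription factors and osteoblast genes, 4 were tested, with a median log2FC of -0.02. In edgeR 0 of them were differentially expressed and 1, Runx2, had an unadjusted p under 0.05, while DESeq2 called 1 and limma-voom 0. Among all genes the shares called were 36.4% in edgeR, 29.3% with DESeq2 and 35.1% with limma-voom. Atoh8, a bHLH factor induced by BMPs, was 6.79 ± 1.08 CPM in horse serum and 7.35 ± 0.62 CPM in STEM libraries (SD, n = 6 each, adjusted p = 0.449). Runx2, the master factor of bone cells, named after its values were seen, was 15.4 ± 4.38 CPM and 22.0 ± 6.52 CPM (log2FC 0.51, adjusted p = 0.0873). It was the gene that DESeq2 called (adjusted p = 0.0407), and it passed in edgeR once library 6 was left out (log2FC 0.66, adjusted p = 0.0305), beside 50.8% of all genes. The osteoblast genes Sp7, Alpl and Bglap did not exceed 0.362 CPM in any library, and Ibsp had no counts.
Of 7 bHLH partners of the Id proteins and myogenic factors, 2 were lower with STEM and 0 higher in edgeR, with a median log2FC of 0.03. These 2 of 7 lie below the 36.4% called among all genes, of which 17.4% were lower and 18.9% higher. At an unadjusted p under 0.05, 2 were higher, and with DESeq2 and limma-voom 0 were. Myog, the myogenin gene of terminal differentiation, dropped to 745 ± 83.8 CPM from 907 ± 38.3 CPM (SD, n = 6 each; log2FC -0.29, adjusted p = 0.00403). Myf5, the factor of early myoblasts, had a log2FC of -0.42 (adjusted p = 0.00132) with no overlap between the groups. Myod1 was 84.8 ± 6.97 CPM in horse serum and 86.4 ± 8.71 CPM in STEM libraries, with a log2FC of 0.03 (adjusted p = 0.797). Without library 6, 3 of the 7 were higher (Tcf3, Tcf12 and Myf6) and 2 lower, beside 26.3% and 24.5% of all genes.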

How the data were processed

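Total RNA of C2C12 myotubes was measured in 12 libraries, 6 per group. The authors made stranded, ribosome-depleted, paired-end libraries and deposited raw read counts per Ensembl gene, without normalization, on GRCm38 (mm10). The submitters' processing notes name STAR 2.7.3a, featureCounts 1.6.3 and DESeq2 1.26.0, and the annotation release and strand setting of the counting are not given in the sources used here. Symbols, coordinates and exon lengths came from GENCODE M21, which held 55227 of the 55487 genes. Library totals ran from 13285472 to 24536264.

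The counts were tested with edgeR 4.0.16 in R 4.3.3 (TMM, filterByExpr, glmQLFit with robust estimation, glmQLFTest), with group as the only term. This kept 14175 genes, called at a Benjamini-Hochberg adjusted p of 0.05 or less. Adjusted p-values in the text are from this edgeR fit unless another tool is named. Standard errors are the absolute log2 fold change divided by the square root of F. Log2 CPM used a prior count of 2. The two-sided exact permutation test compared mean log2 CPM over all 924 assignments of libraries to groups, and the smallest p it allows is 0.00216. No pair of libraries was close enough to be a repeat deposit (chi-square per degree of freedom of 3.54 or more). DESeq2 1.42.0, limma-voom (limma 3.58.1), other size factors, no filter and leaving out each library were alternatives. The fits were tested on simulated data, and no outcome of that check is reported here. DESeq2 and limma-voom without library 6 were added after the data were examined.

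The members, the gene lists and the markers were chosen with earlier results of these data known. Named genes are the members, the 3 lowest p-values among called genes and the most abundant gene that was not called in each pathway list, the most abundant and the near-undetected genes of each marker list, the 3 nearest profiles to Grem1 and Id1, and genes overlapping a member. Chrd, Nog and further genes that spell out a count were named after their values were seen. Myf5 and Chrdl2 stand in a pathway list and a marker list. A gene of the pathway lists is not reported here, and the counts of its list leave it out.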

Additional observations from a re-analysis of the deposited data

Results flagged for a closer look

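Of 64 series of 6 libraries examined for a value far from the rest (each tested member and named gene, the library totals and the marker sums, within each group), 9 held one whose gap to its neighbour exceeded 0.625 of the group's range. For normally distributed values chance gives about 1 in 20, or 3.2 of 64. The series share the same libraries, and some named genes are part of a marker sum. The 9 are therefore not separate events, and their excess over 3.2 was not tested. Horse serum library 6 held 7 of the 9. Its Id1 was 17 CPM, against 8.57 to 10.2 CPM in the other horse serum libraries. The ligand gene Gdf5 was 3.59 CPM there, against 12.3 to 17.1 CPM, and the co-receptor gene Hjv 74 CPM, against 161 to 181 CPM. Smad4 was 87.7 CPM (64.6 to 72.7 CPM in the others) and Smad5 was 112 CPM (92.7 to 96.4 CPM in the others). The myotube markers of library 6 summed to 10900 CPM, against 19967 to 22172 CPM, and its unfused and reserve myoblast markers to 314 CPM, against 268 to 284 CPM.

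In the STEM group, Myf5 was 11.4 CPM in library 11, against 13.5 to 14.4 CPM in the other STEM libraries. The total of library 7, 24536264 counts, was the highest of the group. What these values rest on was not tested.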

How the results depend on the processing

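The members called stayed at 5 (2 higher, 3 lower) in each edgeR fit that left out a library. Their number fell to 3, with 0 higher, when no filter on low counts was used. That fit tested more genes and called 15.7% of 29620, against 36.4% of the 14175 tested with the filter. In it, Id1 had a log2 fold change of 0.63 (adjusted p = 0.0531) and Id3 of 0.72 (adjusted p = 0.0843). With limma-voom (35.1% of all genes called) 1 other ligand was called, and DESeq2 (29.3%) called 1 gene (Runx2) of the other induced and osteoblast genes. Without horse serum library 6, the log2 fold change of Bmpr1a was -0.019 with limma-voom and -0.022 with DESeq2, and that of Smad6 0.027 and 0.0099, settings chosen after seeing the data. When each library was left out in turn, the genes called ran from 4459 to 7245 in all (31.2% to 33.6% of those tested, and 50.8% without horse serum library 6), from 1 to 2 for other ligands, 2 to 5 for antagonists, 3 to 7 for receptors, 5 to 8 for transducers, 0 to 1 for other induced genes and 2 to 5 for bHLH partners. Some genes that did not pass changed sign: the log2 fold change of Bmpr1a ran from -0.019 to 0.045, Smad6 from -0.081 to 0.031, Smad7 from -0.020 to 0.12, Hjv from -0.10 to 0.092, Myod1 from -0.0045 to 0.066 and Smad4 from -0.079 to 0.019. The causes were not tested. Of the values of the 18 pathway genes outside the members that the rule named, under the alternatives, 278 kept direction and call, 23 lost the call (Gdf5 and Dand5), 1 gained it (Nbl1 without library 6) and 4 changed sign. Of the other listed genes, Bmpr2, Rgma, Smad1, Skil, Tob1, Myh8 and Bub1 each lost the call in 1 or more fits. DESeq2's size factors and library totals shifted the median of all genes by -0.0049 and 0.019. No paired analysis was possible because the groups share no library numbers. Bmp2 and 8 of 12 other ligands were too close to 0 counts for a comparison at this depth.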
